A study of Homo sapiens with 3 samples.

Results

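The cyclins and interphase cyclin-dependent kinases (CDKs) described here are 10 genes of the 58333 in the table, chosen by name: CCND1, CCND2 and CCND3 (cyclins D1, D2 and D3), CDK4 and CDK6, CCNE1 and CCNE2 (cyclins E1 and E2), CDK2, CCNA2 (cyclin A2) and CCNB1 (cyclin B1). Their mRNA was measured by poly(A)+ RNA sequencing in Cal62 cells, an established human line of thyroid cancer. The cells had been transfected with a control siRNA (siControl) or with an siRNA against ADAR, the gene of the RNA-editing enzyme ADAR1 (siADAR1 #1 or siADAR1 #2). All groups were the same cell line in the same medium and received the same transfection reagent, and no group was left without siRNA. The labels give 1 sample per transfection, each with a pair of value columns. These were taken as the 2 biological replicates of the study's methods, so each group had n = 2 libraries. The siADAR1 groups are transient knockdowns in 1 cell line, and how long after transfection RNA was taken is not given in the sources used here.

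Cyclins are regulatory subunits that rise and fall through the cell cycle and switch on their CDK partners. D-type cyclins are made in response to growth signals and activate CDK4 and CDK6, which phosphorylate the retinoblastoma protein and release E2F transcription factors. E-type cyclins with CDK2 then drive entry into S phase, cyclin A2 works with CDK2 in S phase and with CDK1 in G2, and cyclin B1 with CDK1 drives mitosis. In tumors, including those of the thyroid, cyclin D1 is often abundant, and CDK4 and CDK6 are drug targets.

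The libraries held 30114840 to 50029763 reads on genes, and 1 read was worth 0.935 to 1.46 normalized counts. The normalized count of ADAR was 10906 and 11701 in siControl, 1328 and 2246 with siADAR1 #1, and 1664 and 2928 with siADAR1 #2. ADAR mRNA was thus 15.8% and 20.3% of siControl on average with siADAR1 #1 and siADAR1 #2, with log2 fold changes (log2FC) of -2.71 (SE 0.30, adjusted p = 0.00295) and -2.35 (SE 0.30, adjusted p = 0.00128). Of 9 markers of thyroid follicular cells, 6 had under 1 TPM (reads per base of exon, scaled to a common total in each library) on average over the 6 libraries, among them TG and TSHR, and NKX2-1 had 0 reads, while PAX8, FOXE1 and HHEX were detected. The summed TPM of these 9 markers was 177 to 242 in siControl, 182 to 230 with siADAR1 #1 and 89.0 to 124 with siADAR1 #2. Summed over 6 epithelial genes (EPCAM, CDH1, KRT7, KRT8, KRT18 and KRT19) it was 2689 to 2897, 3947 to 5883 and 2142 to 2197 in the same order, and over 3 mesenchymal genes (VIM, CDH2 and FN1) 1932 to 2346, 431 to 763 and 957 to 1526. Of 4 leukocyte and 3 endothelial markers, 3 and 3 had under 1 TPM on average, CD3E had 0 reads, and the sums were at most 5.58 and 0.578 TPM. Summed over 4 genes of proliferating cells (MKI67, TOP2A, PCNA and MCM2) the level was 1624 to 1942 TPM in siControl, 1017 to 1143 with siADAR1 #1 and 867 to 1026 with siADAR1 #2. It was lower in each of the 4 siADAR1 libraries, and the part of these markers in the values of the cyclins and CDKs was not tested. In bulk RNA, fewer cells in a phase of the cycle and less of an mRNA per cell cannot be told apart.

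CDK6 mRNA fell and CCND3 mRNA rose with each siRNA, whereas CCND1, CCNA2 and CCNB1 fell with siADAR1 #2 and did not pass the test with siADAR1 #1. CCNE1 rose with siADAR1 #1 and had a log2 fold change of 0.00 with siADAR1 #2. CDK2 and CDK4 passed the test with neither siRNA. CCND2 was at the limit of detection and was not tested, so 9 of the 10 genes passed the filter on low values. A gene was called changed at a limma adjusted p-value under 0.05, adjusted over all 20858 genes tested, and a log2FC beyond 0.5 in either direction, which are the study's thresholds. With siADAR1 #1, 3 of the 9 genes were called (2 up, 1 down), against 16.8% of all genes tested (6.18% up, 10.6% down). Without siControl replicate 1, 0 of the 9 were called with siADAR1 #1 (392 of all genes), and without siControl replicate 2, 1 was. With siADAR1 #2, 6 of the 9 were called (1 up, 5 down), against 26.6% of all genes (11.1% up, 15.5% down). The median log2FC of the 9 genes was -0.21 with siADAR1 #1 and -0.53 with siADAR1 #2, beside -0.02 and -0.01 over all genes. With siADAR1 #1 the libraries did not overlap those of siControl for 7 of the 9 genes (2 above and 5 below), as for 61.2% of all genes (28.4% above and 32.8% below). With siADAR1 #2 the same count was 7 (1 above and 6 below), beside 67.2% of all genes (32.3% above and 35% below). These comparisons share the siControl libraries, so they are not independent of each other.

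**Figure D1:**
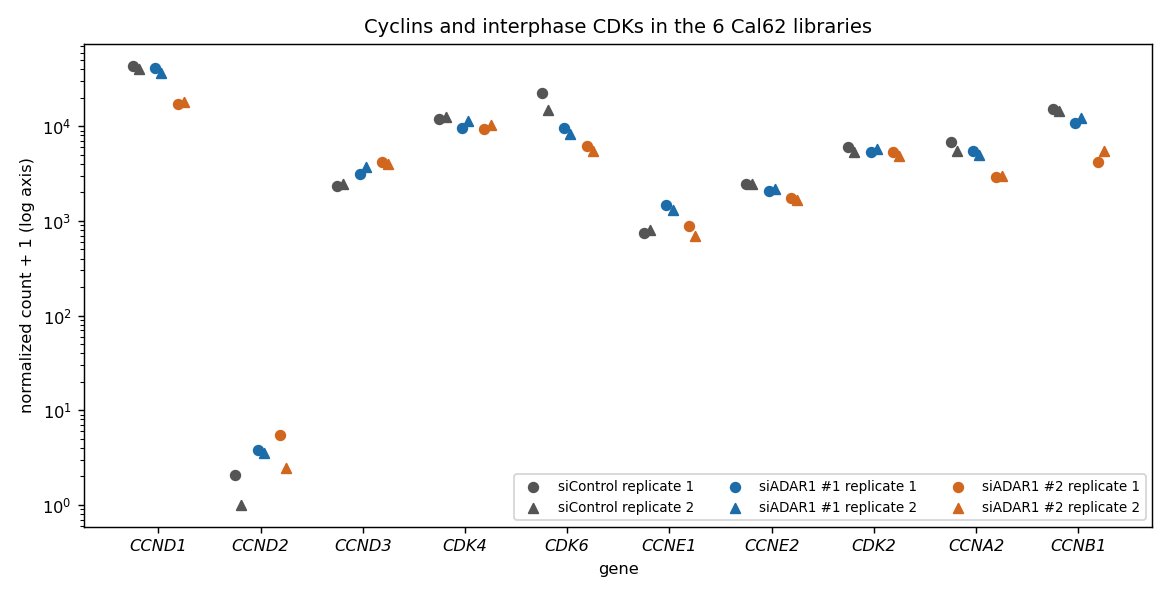
Normalized count plus 1 (log axis) of the 10 genes in each of the 6 libraries, with circles for replicate 1, triangles for replicate 2 and a color for each group. The siADAR1 #2 libraries lie below all others for CCND1, CDK6, CCNE2, CCNA2 and CCNB1. The siADAR1 #1 libraries lie above all others for CCNE1, and CCND2 has at most 4.54 normalized counts.

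The mRNA levels of the genes spanned a wide range. Compared per length as TPM, the mean levels in siControl (n = 2) were 629 ± 67.6 (SD) for CCND1, 434 ± 55.8 for CCNB1, 287 ± 54.9 for CDK4 and 160 ± 0.294 for CCNA2. CDK6 (107 ± 12.9) and CDK2 (105 ± 8.53) followed at levels that did not differ beyond their spread. CCNE2 had 40.2 TPM, CCND3 30.1 and CCNE1 22.9, and the libraries of CCND3 and CCNE1 overlapped. The SD of CCNA2 was small in TPM, while its normalized counts in the same siControl libraries were 6891 and 5461. These SDs thus depend on how the libraries are scaled. The ranking was not the same with the siRNAs. With siADAR1 #2, CDK4 (259 ± 30.4 TPM) stood above CCNB1 (162 ± 36.4), CDK2 (107 ± 3.05) above CCNA2 (87.3 ± 6.36), and CCND3 (57.7 ± 0.166) above CDK6 (38.4 ± 1.13). CCND1 was the most abundant of the 10 in each group, with 613 ± 65.5 TPM with siADAR1 #1 and 302 ± 26.2 with siADAR1 #2. TPM was computed here with the merged exons of all transcripts of a gene. Which transcripts were expressed was not measured, so ranks and shares between genes are uncertain to that extent.

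CCND1 (ENSG00000110092, GRCh38 chr11:69641156-69654474, plus strand) encodes cyclin D1, the main D-type cyclin in many epithelial tumors. Its normalized count was 43376 and 40136 in siControl, 40949 and 36429 with siADAR1 #1, and 17211 and 18217 with siADAR1 #2. The siADAR1 #1 libraries overlapped those of siControl, while both siADAR1 #2 libraries lay far below the other 4. The log2FC with siADAR1 #1 was -0.11 (SE 0.11, adjusted p = 0.536), with a 95% confidence interval from -0.37 to 0.14. With siADAR1 #2, CCND1 fell to 42.4% of siControl, with a log2FC of -1.24 (SE 0.11, adjusted p = 0.000394). The direct comparison of siADAR1 #2 with siADAR1 #1 gave a log2FC of -1.13 (SE 0.11, adjusted p = 0.000366), so the response of CCND1 differed between the siRNAs. Of the exon bases of CCND1, 10.4% also lie in exons of LTO1 on the opposite strand.

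CCND3 (ENSG00000112576, chr6:41934934-42050357, minus strand) encodes cyclin D3 and moved the other way. Its normalized count was 2341 and 2461 in siControl, 3165 and 3719 with siADAR1 #1, and 4229.6 and 3975 with siADAR1 #2. Each of the 4 siADAR1 libraries lay above both siControl libraries. CCND3 rose with siADAR1 #1 by a log2FC of 0.51 (SE 0.13, adjusted p = 0.027), just past the fold threshold, and with siADAR1 #2 by 0.77 (SE 0.13, adjusted p = 0.00322). The siRNAs did not differ detectably for CCND3 (log2FC 0.26 for siADAR1 #2 against siADAR1 #1, 95% confidence interval -0.03 to 0.55, adjusted p = 0.148). The call with siADAR1 #1 was lost without siControl replicate 1 (adjusted p = 0.136), siControl replicate 2 (0.0937) or siADAR1 #1 replicate 2 (0.0943), while that with siADAR1 #2 was kept in all 16 alternatives.

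CCND2 (ENSG00000118971, chr12:4269771-4305353, plus strand), the gene of cyclin D2, had 1 and 0 reads in siControl, 3 and 2 with siADAR1 #1, and 4 and 1 with siADAR1 #2. A count of 0 allows up to 3 reads, so these libraries were at or near that limit, and no fold change is given. This limit covers counting error only. Of the exon bases of CCND2, 12.5% also lie in ENSG00000285901 on the same strand (15 to 56 reads), so reads from them may have been left out. Among the reads counted, cyclin D1 and cyclin D3 mRNA made up nearly all D-type cyclin mRNA. CCND3 supplied 4.27% and 4.82% of the summed TPM of the 3 D-type cyclins in siControl, 6.003% and 7.78% with siADAR1 #1, and 16.9% and 15.3% with siADAR1 #2. The share was higher in all 4 siADAR1 libraries than in siControl, and highest with siADAR1 #2, where CCND1 fell while CCND3 rose. With 2 libraries per group the smallest two-sided p that an exact permutation test can give is 0.333, so the shares are given without a test.

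CDK6 (ENSG00000105810, chr7:92604921-92836573, minus strand) and CDK4 (ENSG00000135446, chr12:57747727-57756013, minus strand) encode the kinases that D-type cyclins activate. The normalized count of CDK6 was 22258 and 14902 in siControl, 9547 and 8262 with siADAR1 #1, and 6128 and 5503 with siADAR1 #2. The siControl libraries differed from each other by more than those of either siRNA, and all 4 siADAR1 libraries lay below them. CDK6 fell to 47.9% of siControl with siADAR1 #1 (log2FC -1.04, SE 0.19, adjusted p = 0.0102). It fell to 31.3% with siADAR1 #2 (log2FC -1.65, SE 0.19, adjusted p = 0.000819). The change was larger with siADAR1 #2 (log2FC -0.61 against siADAR1 #1, SE 0.19, adjusted p = 0.0352), a difference that lost its call without any single siADAR1 library (adjusted p = 0.0521 to 0.152). The call with siADAR1 #1 was lost without siControl replicate 1, the higher control library, where the log2FC was -0.75 (adjusted p = 0.0585).

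The normalized count of CDK4 was 12038 and 12557 in siControl, 9599 and 11401 with siADAR1 #1, and 9386 and 10376 with siADAR1 #2. All 4 siADAR1 libraries lay below siControl, by a smaller margin than for CDK6. The log2FC was -0.23 (SE 0.12, adjusted p = 0.231) with siADAR1 #1 and -0.32 (SE 0.12, adjusted p = 0.0885) with siADAR1 #2, with confidence intervals from -0.51 to 0.05 and from -0.60 to -0.04. The difference between the siRNAs was -0.08, with an interval from -0.37 to 0.20. Of the exon bases of CDK4, 44.2% are shared with TSPAN31 on the opposite strand. Whether counting used the strand is not given in the sources used here. Without strand, reads from the shared bases could be left out or assigned to either gene. The CDK4 level, its place among the 10 genes and the share of CDK6 given next are uncertain to that extent. The values of CCND1, CCNE2, CCNA2 and CDK2, which also share exon bases with a gene on the opposite strand, carry the same uncertainty. CCND3 and CDK6 share 0.4% and 0.7% of theirs in this way, and CCND2 shares bases with a gene on its own strand. The processed copy CDK4P1 had at most 3 reads. CDK6 supplied 31.9% and 23.1% of the summed TPM of CDK4 and CDK6 in siControl, 20.1% and 15.5% with siADAR1 #1, and 14.2% and 11.8% with siADAR1 #2. The CDK6 share was thus lower in each of the 4 siADAR1 libraries than in either siControl library.

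**Figure D2:**
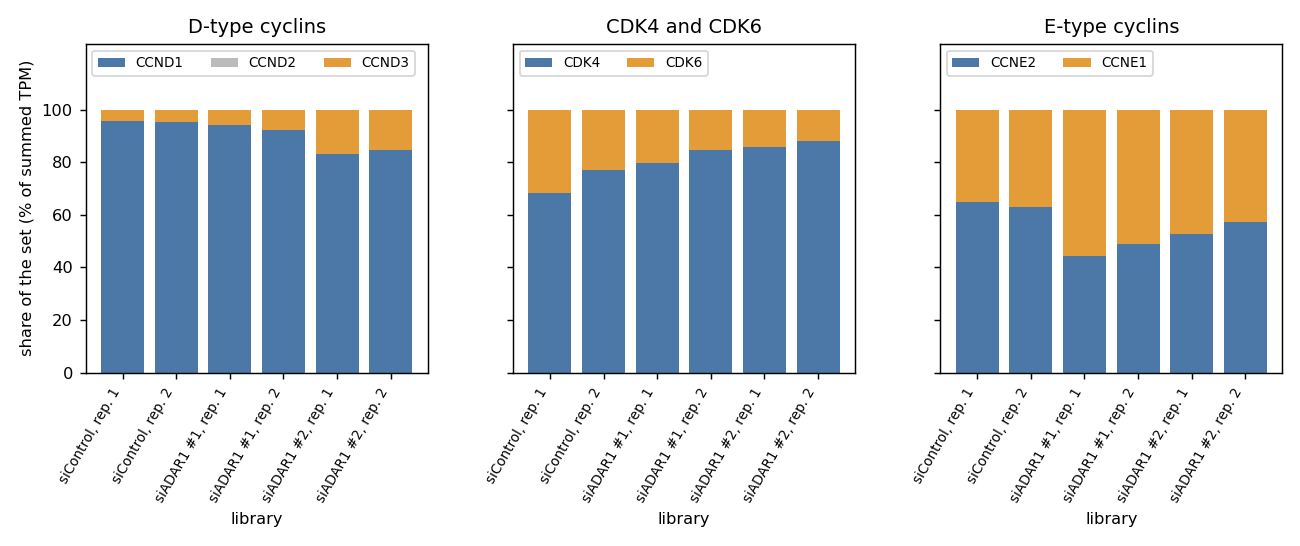
Share (%) of the summed TPM that each gene supplies in each library, for the D-type cyclins (left), CDK4 and CDK6 (middle) and the E-type cyclins (right), with bars of stacked shares that add to 100%. CCND3 reaches 16.9% of the D-type cyclins with siADAR1 #2, the CDK6 share is lowest at 11.8%, and CCNE1 exceeds CCNE2 only in the siADAR1 #1 libraries.

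CCNE1 (ENSG00000105173, chr19:29811991-29824312, plus strand) and CCNE2 (ENSG00000175305, chr8:94879770-94896678, minus strand) encode the E-type cyclins, which bind CDK2 at the start of S phase. The normalized count of CCNE1 was 750.3 and 807 in siControl, 1454 and 1287.5 with siADAR1 #1, and 883 and 688 with siADAR1 #2. Only the siADAR1 #1 libraries stood apart, since those of siADAR1 #2 lay on either side of siControl. CCNE1 rose to 176% of siControl with siADAR1 #1 (log2FC 0.81, SE 0.17, adjusted p = 0.016). With siADAR1 #2 the log2FC was 0.00 (SE 0.17, adjusted p = 0.991), with a confidence interval from -0.38 to 0.39. Compared directly, CCNE1 was lower with siADAR1 #2 than with siADAR1 #1 (log2FC -0.81, SE 0.17, adjusted p = 0.00722). The rise with siADAR1 #1 was no longer called without siControl replicate 1 (adjusted p = 0.107), siControl replicate 2 (0.0743) or siADAR1 #1 replicate 1 (0.0838), at log2FC values of 0.72 to 0.86.

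The normalized count of CCNE2 was 2476 and 2439.8 in siControl, 2065 and 2193 with siADAR1 #1, and 1762 and 1648 with siADAR1 #2. The groups did not overlap, and the siADAR1 #1 libraries lay between the others. With siADAR1 #1 the log2FC was -0.21 (SE 0.12, adjusted p = 0.269), and with siADAR1 #2 CCNE2 fell by 0.53 on the log2 scale (SE 0.12, adjusted p = 0.0125). This last value was close to the fold threshold, and the call was lost without either siControl library or either siADAR1 #2 library (adjusted p = 0.0516 to 0.0713). The difference between the siRNAs was -0.32 with an interval from -0.59 to -0.05 (adjusted p = 0.0674). INTS8, on the opposite strand, shares 1629 of the 4397 exon bases of CCNE2, and the CCNE2 values carry the same uncertainty as those of CDK4. CCNE1 supplied 35.1% and 37.1% of E-type cyclin TPM in siControl, 55.7% and 51.2% with siADAR1 #1, and 47.2% and 42.7% with siADAR1 #2. The share was above siControl in all 4 siADAR1 libraries, with CCNE1 up with siADAR1 #1 and CCNE2 down with siADAR1 #2.

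CDK2 (ENSG00000123374, chr12:55966781-55972789, plus strand) encodes the kinase of the E-type cyclins and cyclin A2 and varied least. Its normalized count was 6051 and 5393 in siControl, 5389 and 5704 with siADAR1 #1, and 5399.8 and 4854 with siADAR1 #2. The 3 groups overlapped. The log2FC was -0.04 (95% confidence interval -0.32 to 0.23, adjusted p = 0.84) with siADAR1 #1 and -0.16 (-0.43 to 0.11, adjusted p = 0.361) with siADAR1 #2, and -0.11 (-0.39 to 0.16) between the siRNAs. A change of CDK2 beyond these intervals was not detected, which does not show that its level was the same in each group. On the opposite strand, ENSG00000258554 (0 to 37 reads) shares 14.5% of the exon bases of CDK2, and PMEL 2.3%.

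CCNA2 (ENSG00000145386, chr4:121816444-121823883, minus strand) encodes cyclin A2 of S phase and G2. Its normalized count was 6891 and 5461 in siControl, 5413 and 5004 with siADAR1 #1, and 2902 and 3012 with siADAR1 #2. All siADAR1 libraries lay below siControl, those of siADAR1 #1 by little and those of siADAR1 #2 clearly. The log2FC was -0.24 (SE 0.14, adjusted p = 0.276) with siADAR1 #1, with a confidence interval from -0.55 to 0.08. With siADAR1 #2, CCNA2 fell to 47.9% of siControl (log2FC -1.05, SE 0.14, adjusted p = 0.00135). The siRNAs differed (log2FC -0.82 for siADAR1 #2 against siADAR1 #1, SE 0.14, adjusted p = 0.00288). EXOSC9 on the opposite strand shares 9.2% of the exon bases of CCNA2.

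CCNB1 (ENSG00000134057, chr5:69167135-69178245, plus strand) encodes cyclin B1, the cyclin of mitotic entry, and is destroyed as cells leave mitosis. Its normalized count was 15061 and 14358 in siControl, 10762 and 12149 with siADAR1 #1, and 4233 and 5459 with siADAR1 #2. The groups did not overlap, in the order siControl, siADAR1 #1 and siADAR1 #2. With siADAR1 #1 the log2FC was -0.36 (SE 0.14, 95% confidence interval -0.69 to -0.03), which did not pass after adjustment (adjusted p = 0.121). With siADAR1 #2, CCNB1 fell to 32.9% of siControl (log2FC -1.61, SE 0.14, adjusted p = 0.000385). Against siADAR1 #1 it was lower by a log2FC of -1.25 (SE 0.14, adjusted p = 0.00059). The calls of CCND1, CCND3, CDK6, CCNA2 and CCNB1 with siADAR1 #2 were each kept in all 16 alternatives.

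The promoters of CCNA2 and CCNB1, which fell with the same siRNA, and of CCNE1, which did not, are shown to compare elements known from cell cycle genes. Each is the 250 bases before a gene start in RefSeq (GRCh38.p14), 5′ to 3′ on the strand of the gene: chr4:121823884-121824133 (minus), chr5:69166900-69167149 (plus) and chr19:29811741-29811990 (plus). Capitals mark 3 elements searched on both strands: the CCAAT box (CCAAT), the cyclic AMP response element (TGACGTCA), and the cell cycle genes homology region (TTTGAA, or CTTGAA, or TTTAAA).
CCNA2: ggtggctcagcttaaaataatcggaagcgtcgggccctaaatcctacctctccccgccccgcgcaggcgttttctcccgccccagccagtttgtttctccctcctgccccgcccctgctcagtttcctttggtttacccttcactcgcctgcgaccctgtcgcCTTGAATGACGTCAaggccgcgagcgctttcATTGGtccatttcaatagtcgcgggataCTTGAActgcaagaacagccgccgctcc
CCNB1: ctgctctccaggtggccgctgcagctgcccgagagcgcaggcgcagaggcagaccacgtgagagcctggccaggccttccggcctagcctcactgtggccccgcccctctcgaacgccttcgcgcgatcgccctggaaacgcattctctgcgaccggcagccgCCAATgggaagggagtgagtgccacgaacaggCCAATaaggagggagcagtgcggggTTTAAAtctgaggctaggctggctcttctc
CCNE1: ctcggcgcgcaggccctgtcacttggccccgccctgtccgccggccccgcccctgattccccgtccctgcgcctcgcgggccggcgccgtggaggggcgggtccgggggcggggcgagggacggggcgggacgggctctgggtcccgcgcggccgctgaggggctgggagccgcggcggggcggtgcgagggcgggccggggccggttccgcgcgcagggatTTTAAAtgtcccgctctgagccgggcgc
The CCNA2 window held 1 CCAAT box at -56 (in reverse as ATTGG), 1 cyclic AMP response element at -81 and homology regions at -87 and -28, counted from the gene start. The element at -87 lies directly before the response element. The CCNB1 window held CCAAT boxes at -87 and -55 and a homology region at -30. The CCNE1 window held a homology region at -28 and no CCAAT box or response element, but 7 GC boxes (GGGCGG), against 3 in CCNA2 and 1 in CCNB1. Among all 35116 RefSeq promoter windows of this length, 32.0% held a CCAAT box, 28.2% a homology region, 42.6% a GC box and 1.65% the response element. Of the 10 genes, 6 matched RefSeq promoter entries, with 9 windows in all, and CCND1, CCND2, CCNE2 and CDK2 had no entry. The CDK4 window held 3 E-boxes (CACGTG), found in 6.34% of all windows, and the window just before the CDK6 gene held 3 GC boxes. CDK6, which fell with each siRNA, had no CCAAT box, response element or homology region in its windows. CCND3, which rose with each, had CCAAT boxes at -136 and -64 in separate windows, and none in its window furthest upstream. Whether any of these elements bears on the changes was not tested. A match to E2F motifs (TTTGGCGC, TTTCGCGC, TTTCCCGC or TTTGCCGC) was found in 0 of these 9 windows, against 2.79% of all windows, and a TATA box (TATAAA) in 0, against 10.7%. All motifs were searched on both strands. These are matches of exact letters only, and binding was not measured. With 9 windows of 6 genes, the 0 matches to E2F motifs do not show that other forms of these sites are absent.

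**Figure D3:**
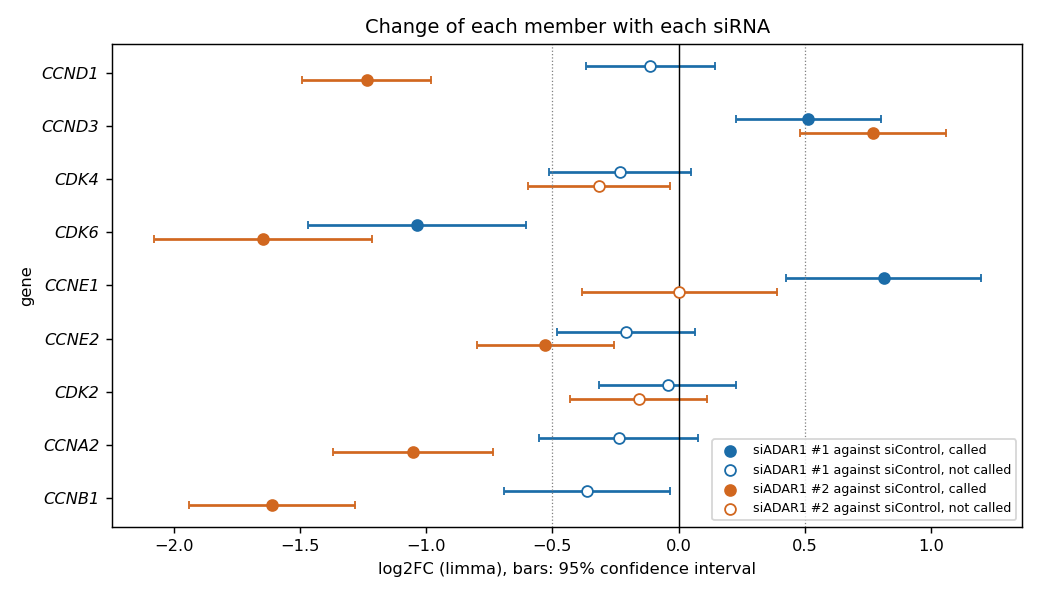
The log2FC of 9 genes with siADAR1 #1 (blue) and siADAR1 #2 (orange) against siControl, with bars for the 95% confidence interval, filled points for called genes and dotted lines at 0.5 in either direction. CDK6 lies on the left and CCND3 on the right with each siRNA, and for CCND1, CCNE1, CCNA2 and CCNB1 the intervals of the siRNAs do not overlap. With each library centred on its median gene, the siADAR1 #1 values of CCND1 and CDK2 turn from -0.11 and -0.04 to 0.03 and 0.10.

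Whether the siRNAs differed was tested directly, since a call with siADAR1 #2 and none with siADAR1 #1 does not show it. Of the 9 genes, 5 were lower with siADAR1 #2 than with siADAR1 #1 and 0 were higher (16.1% and 16.7% of all genes tested, 32.8% in all). These were CCND1, CDK6, CCNE1, CCNA2 and CCNB1, and the median log2FC of the 9 was -0.61, beside 0.00 over all genes. The libraries of the siRNAs did not overlap for 7 of the 9 genes (1 above, 6 below), as for 69.3% of all genes (34.4% above and 34.9% below). ADAR itself did not differ detectably between them (log2FC 0.35, 95% confidence interval -0.34 to 1.05, adjusted p = 0.404).

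The scaling of the libraries bears on these values. Centring each library on its median gene moved the median log2FC of all genes with siADAR1 #1 from -0.02 to 0.12 and that between the siRNAs from 0.00 to -0.13. With it the genes called with siADAR1 #1 went from 1290 up and 2212 down to 1951 up and 1706 down, and those between the siRNAs from 3488 up and 3350 down to 2854 up and 4274 down. Quantile normalization gave 1692 up and 1852 down with siADAR1 #1. The same genes of the cyclin and CDK list were called with siADAR1 #1 under median centring, CDK6 at a log2FC of -0.89, CCND3 at 0.66 and CCNE1 at 0.96. CCND1 and CDK2 turned in sign there, to 0.03 and 0.10, and neither was called.

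With the 4 siADAR1 libraries taken as 1 group against siControl, 0 of the 9 genes and 0 of 20858 were called by limma, or 0% of all genes. Of the 9, CDK6 (log2FC -1.34, SE 0.28, adjusted p = 0.155) and CCND3 (log2FC 0.64, SE 0.17, adjusted p = 0.201) had an unadjusted p-value under 0.05, as did 2916 genes in all. limma-voom on the recovered reads also called 0 genes, with 2973 at an unadjusted p under 0.05. The study tested with DESeq2 at the same thresholds and reports genes that fell and genes that rose on ADAR1 knockdown. Its methods preferred counts estimated with Salmon, while the fits here used the deposited values or the reads recovered from them. The 0 called here is a result of these fits, and which difference from the study accounts for it was not tested. All 4 siADAR1 libraries lay below siControl for CDK4, CDK6, CCNE2, CCNA2 and CCNB1 and above it for CCND3, 6 of the 9 genes, as for 28.6% of all genes (16.6% below and 12% above). When the siRNAs were kept apart and the average of their changes was tested, 5 of the 9 genes (CCND1, CCND3, CDK6, CCNA2 and CCNB1) and 3585 of all genes were called. In the fit with 1 group, the difference between the siRNAs counts as spread between replicates.

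As a description over the 6 libraries, which are 3 conditions and share their size factors, the log2 values of CCND1, CCNA2 and CCNB1 ran most closely together. Pearson's r was 0.98 for CCND1 with CCNA2, 0.97 for CCND1 with CCNB1 and 0.97 for CCNA2 with CCNB1. CCND3 ran opposite to CDK6 (r = -0.97). For CCNE1 the r largest in size was 0.43, with CCND2, which is near its limit of detection.

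Partners and regulators of these genes were taken from 5 lists. Their counts can be read against all genes tested, of which 6.18% were called up and 10.6% down with siADAR1 #1. With siADAR1 #2 these shares were 11.1% and 15.5%. Among 10 other cyclins, CDKs and parts of the CDK-activating kinase that could be tested, of 11 listed, 3 fell with siADAR1 #1 and 5 with siADAR1 #2, and 0 rose. The median log2FC was -0.18 and -0.40. CDK1, the kinase of cyclins A2 and B1, had 8031 and 7627 normalized counts in siControl, 4268 and 5239 with siADAR1 #1, and 3756 and 4144 with siADAR1 #2. It fell with each siRNA (log2FC -0.73, adjusted p = 0.0104, and -0.99, adjusted p = 0.00152). CCNB2, another B-type cyclin, fell by 0.66 and 1.11 on the log2 scale, and CCNF, which marks proteins for degradation in G2, by 1.12 and 0.84. CKS1B, a small CDK-binding protein, fell with siADAR1 #2 (log2FC -1.33, adjusted p = 0.000574) and had a log2FC of 0.29 with siADAR1 #1 (adjusted p = 0.182). CCNA1 was the gene not tested, with 2 to 13 reads. With siADAR1 #1, 0 genes of this list were called without siControl replicate 1 and 1 without siADAR1 #1 replicate 1.

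Of 7 CDK inhibitors, 5 could be tested, since CDKN2A had 0 reads in each library and CDKN2B had at most 1. With siADAR1 #1, 2 rose and 1 fell, and with siADAR1 #2, 1 rose and 0 fell, beside 16.8% and 26.6% of all genes called. CDKN1C (p57) had 417 and 217 normalized counts in siControl, 2968 and 1098 with siADAR1 #1, and 373 and 343 with siADAR1 #2, so only the siADAR1 #1 libraries stood above siControl (log2FC 2.57, adjusted p = 0.00979). The size of this rise depended on single libraries, with a log2FC of 1.86 without siADAR1 #1 replicate 1 and 3.29 without siADAR1 #1 replicate 2. It was not called without either siControl library or without a trend, with adjusted p-values of up to 0.0773. CDKN1B (p27), an inhibitor of CDK2 complexes, rose with siADAR1 #1 (log2FC 1.08, adjusted p = 0.0211) and had a log2FC of 0.41 with siADAR1 #2 (adjusted p = 0.245). CDKN2C (p18), an inhibitor of CDK4 and CDK6, fell with siADAR1 #1 (log2FC -1.62, adjusted p = 0.00252) and had -0.18 with siADAR1 #2. CDKN2D (p19), of the same family, rose with siADAR1 #2 (log2FC 1.57, adjusted p = 0.00126) and had -0.67 with siADAR1 #1 (adjusted p = 0.0541). CDKN1A (p21) had log2FC values of 0.45 and 0.25 (adjusted p = 0.324 and 0.562), and with siADAR1 #1 its log2FC was 0.92 and called without siADAR1 #1 replicate 1 (adjusted p = 0.04) and -0.024 without siADAR1 #1 replicate 2. Of the 5, 0 were called with each siRNA. The calls of this list with siADAR1 #1 were 1 without either siControl library.

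Among the 7 phosphatases and kinases that act on CDKs, 1 rose and 1 fell with siADAR1 #1, and 4 fell with siADAR1 #2. Of all genes, 16.8% and 26.6% were called. PKMYT1, a kinase that holds CDK1 inactive, fell with each (log2FC -0.94 and -1.001). CDC14A rose with siADAR1 #1 (log2FC 1.22) and fell with siADAR1 #2 (-1.20). The activating phosphatases CDC25A and CDC25C fell with siADAR1 #2 (log2FC -0.77 and -1.66, adjusted p = 0.00653 and 0.000959), at 0.16 and -0.23 with siADAR1 #1. WEE1, an inhibitory kinase, had log2FC values of -0.45 and -0.12 and was called with neither siRNA. Of this list, 0 genes were called with siADAR1 #1 without either siControl library or siADAR1 #1 replicate 1, and 2 with siADAR1 #2 without either siControl library.

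All 13 pocket proteins and E2F factors with their partners were tested, and 3 fell with siADAR1 #1 and 7 with siADAR1 #2, with 0 rising. The shares called over all genes were 16.8% and 26.6%. RB1, the substrate of cyclin D complexes, had 7346 and 6219.8 normalized counts in siControl, 6686 and 6359 with siADAR1 #1, and 2339 and 2620.5 with siADAR1 #2. It fell with siADAR1 #2 (log2FC -1.45, adjusted p = 0.000377), as did its relative RBL1 (-0.91) and the repressor E2F7 (-1.60). With siADAR1 #1 the called genes were E2F1 (log2FC -2.02, adjusted p = 0.00673), E2F8 (-1.62) and E2F2. E2F1 and E2F8 had log2FC values of -0.84 and -0.65 with siADAR1 #2 (adjusted p = 0.0852 and 0.0997). Without either siControl library, 0 genes of this list were called with siADAR1 #1, and 4 were called with siADAR1 #2 without siControl replicate 1 or siADAR1 #2 replicate 1.

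Of 16 genes for the degradation of cyclins and CDK inhibitors, 6 fell with siADAR1 #1, and 8 fell and 1 rose with siADAR1 #2. CUL1, the scaffold of SCF ubiquitin ligases, fell with each (log2FC -0.59 and -0.64), as did FBXO5, an inhibitor of the anaphase-promoting complex (-0.83 and -0.94). SKP2, which targets CDKN1B, fell with siADAR1 #2 (log2FC -1.18, adjusted p = 0.00141) and had -0.40 with siADAR1 #1. UBE2C and CDC20, which act in the destruction of cyclin B1, fell with siADAR1 #2 (-1.02 and -0.89) and had -0.27 and -0.10 with siADAR1 #1. FBXW7, which targets E-type cyclins, rose with siADAR1 #2 (0.63, adjusted p = 0.0124) and had -0.07 with siADAR1 #1. FZR1 fell with siADAR1 #1 by 0.50 (adjusted p = 0.0392), at the fold threshold, and had 0.14 with siADAR1 #2. The fall of FZR1 was called in 6 of 16 alternatives, over which its log2FC ran from -0.61 to -0.36. MYC, a regulator of D-type cyclins, had log2FC values of 0.34 and 0.46 (adjusted p = 0.0931 and 0.0235) and was called with neither. With siADAR1 #2, MYC missed the fold threshold only. With siADAR1 #1, 0 genes of this list were called without siControl replicate 1 and 1 without siControl replicate 2 or siADAR1 #1 replicate 1. With eBayes run without a trend, the genes called with siADAR1 #1 went from 3 to 1 among the other cyclins and CDKs, from 3 to 1 among the inhibitors, from 2 to 0 among the phosphatases and kinases and from 6 to 0 in the degradation list, and numbered 3 in both fits among the pocket proteins and E2F factors. Without a filter, the degradation list had 3 genes called and the phosphatases and kinases 1. With siADAR1 #2, the pocket proteins and E2F factors went from 7 to 4 without a trend or with quantile normalization. The shares of each list that were called can be read against 16.8% of all genes with siADAR1 #1 and 26.6% with siADAR1 #2.

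**Figure D4:**
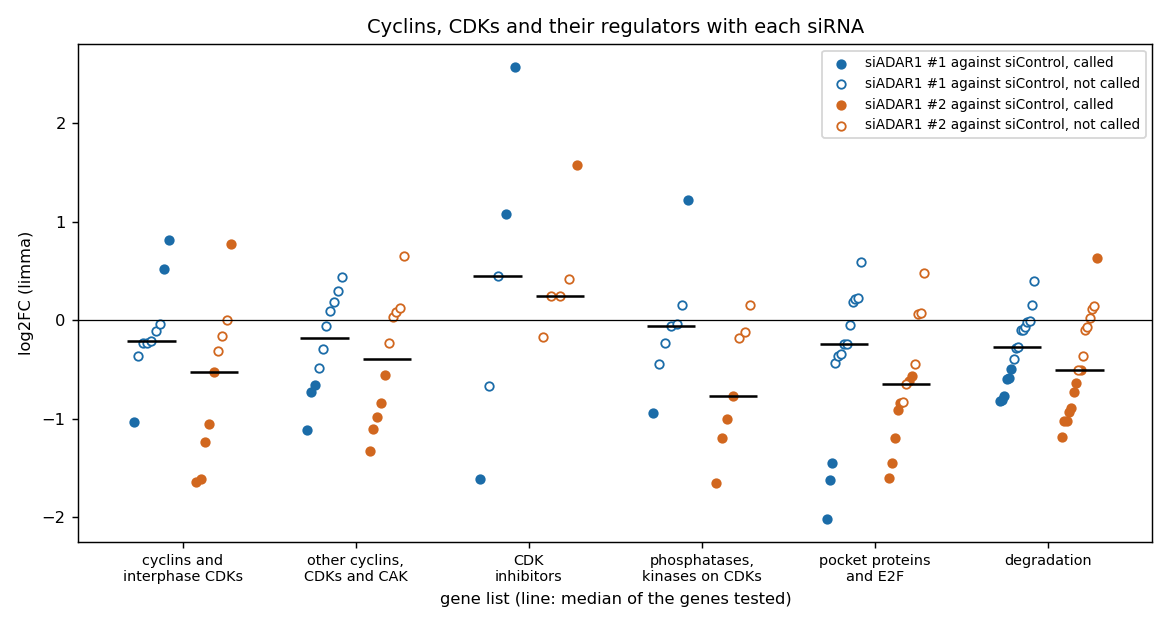
The log2FC of each tested gene of the cyclin and CDK list and of the 5 regulator lists with siADAR1 #1 (blue) and siADAR1 #2 (orange) against siControl, with filled points for called genes and a line at the median of each list. With siADAR1 #2 the list medians run from -0.77 for the phosphatases and kinases to 0.25 for the CDK inhibitors.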

How the data were processed

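Gene expression was measured in Cal62 cells by poly(A)+ RNA sequencing (KAPA mRNA HyperPrep, Illumina NextSeq, 75-bp paired-end reads). By their methods, the authors removed adapters with Atropos, assigned reads to known genes in bcbio-nextgen and normalized with DESeq2. The submitters' processing notes name FastQC, featureCounts, Salmon and GRCh38, without versions. The deposited values are log2 values, made by the authors from size-factor-normalized counts with a variance-stabilizing transformation. Undoing it gave whole reads for 100% of the values (tolerance 0.1). No column was left unused (0 columns).

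Symbols and merged exon lengths came from GENCODE release 44 for 57830 of 58333 identifiers (503 had none), and TPM was computed from the recovered reads and these lengths. TPM has no depth of its own. Genes with a mean log2 value of at least log2 of 10 were tested (nominal, 7.617 normalized counts at the filter). The test was that of limma 3.58.1 under R 4.3.3 (lmFit, eBayes with trend, two-sided, Benjamini-Hochberg) in a fit with 3 groups and, for both siRNAs as 1 group, with 2, which left 3 and 4 residual degrees of freedom. Fold changes are on the scale of the deposited log2 values, which understates changes of low genes. The steps were tested on simulated data. Libraries of the same group differed beyond counting noise (chi-square per degree of freedom 26.4 to 55.9). The study's methods call the replicates biologically independent, while nothing in the labels says that they came from separate cultures. The p-values measure only the spread between these libraries.

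The genes named are the 10 cyclins and CDKs, ADAR, regulators fixed by role, and the 2 genes with the smallest adjusted p in each regulator list with each siRNA; E2F2 and the overlapping genes were named after their values were seen. The members, lists, tests and alternatives were chosen with earlier results of these data known. Alternatives were no filtering, a stricter limit of 50 normalized counts, quantile normalization, median centring, eBayes without trend, robust eBayes, the replicate block, each library left out, limma-voom on recovered reads, normalized counts plus 1 as log2, fits with the 4 libraries compared, and the average of the siRNA changes in 3 groups. Promoters are RefSeq windows of GRCh38.p14. A further marker of thyroid follicular cells is not reported here.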

Additional observations from a re-analysis of the deposited data

Results flagged for a closer look

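For 5 of the 9 genes tested, the change against siControl differed between the siRNAs by the direct limma comparison of siADAR1 #2 with siADAR1 #1. The log2FC of this comparison was -1.13 for CCND1, -0.61 for CDK6, -0.81 for CCNE1, -0.82 for CCNA2 and -1.25 for CCNB1, with adjusted p-values of 0.000366, 0.0352, 0.00722, 0.00288 and 0.00059. In each case both siADAR1 #2 libraries lay below both siADAR1 #1 libraries. CDK6 was lower than siControl with each siRNA and differed in size, CCNE1 was raised with siADAR1 #1 alone, and CCND1, CCNA2 and CCNB1 were lowered past the thresholds with siADAR1 #2 alone. Of all genes tested, 32.8% differed between the siRNAs. The cause of these differences was not tested. Samples that stand apart within a group could not be looked for, since each group had 2 libraries.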

How the results depend on the processing

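Each of the 9 genes was recomputed in 16 alternatives per comparison, and 128 of 144 values kept direction and side of the thresholds with siADAR1 #1, 136 with siADAR1 #2, 137 between the siRNAs and 138 with both siRNAs as 1 group. The cause of a change was not tested unless stated. For siADAR1 #1, eBayes without trend called 1347 genes in all and 0 of the 9, and leaving out 1 library gave 392 to 3680 genes and 0 to 3 of the 9 (lowest without siControl replicate 1, 1248 genes and 1 without siControl replicate 2, and 1412 and 2 without siADAR1 #1 replicate 1). For siADAR1 #2, leaving out 1 library gave 3150 to 5758 genes in all (3150 without siControl replicate 1, 3242 without siADAR1 #2 replicate 1) and 5 or 6 of the 9. For both siRNAs as 1 group, the average in 3 groups called 3585 genes and 5 of the 9, since the difference between the siRNAs then left the spread.

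Without a trend, CCND3 (adjusted p = 0.102), CDK6 (0.0642) and CCNE1 (0.0624) were not called with siADAR1 #1, CCNE2 (0.0517) was not called with siADAR1 #2, and CDK6 (0.112) was not called between the siRNAs. Without a filter, CCND3 with siADAR1 #1 (0.0548) and CDK6 between the siRNAs (0.0657) were not called. With quantile normalization CCNE2 with siADAR1 #2 had a log2FC of -0.38 and was not called.

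The values that changed sign were not called in the comparison as reported. CDKN1A with siADAR1 #1 (0.45) was called at 0.92 without siADAR1 #1 replicate 1. With siADAR1 #1 and median centring these were CCND1 (0.034), CDK2 (0.10), RB1 (0.093), FBXW7 (0.071) and CDC20 (0.043). With quantile normalization they were CCND1 (0.018), CDK2 (0.027), RB1 (0.022) and FBXW7 (0.038) with siADAR1 #1, WEE1 (0.027) with siADAR1 #2 and CDK2 (0.012) with both siRNAs as 1 group. With 1 library left out, log2FC values with siADAR1 #1 ran from -0.13 to 0.040 for CDK2, from -0.024 to 0.92 for CDKN1A, from -0.17 to 0.068 for RB1, from -0.19 to 0.037 for FBXW7 and from -0.23 to 0.024 for CDC20. With siADAR1 #2 they ran from -0.18 to 0.18 for CCNE1, from -0.36 to 0.011 for CDKN2C, from -0.34 to 0.088 for WEE1 and from -0.22 to 0.71 for CDKN1C. Between the siRNAs they ran from -0.21 to 0.040 for CDK4 and from -0.054 to 0.76 for ADAR.

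Replicate numbers come from the columns, and nothing says that they mark a shared culture or day. Over 20858 genes the difference between replicates 2 and 1 correlated at 0.106, 0.110 and 0.162 between pairs of groups. With the replicate block, 4086, 6038, 7275 and 0 genes were called in the comparisons of siADAR1 #1, siADAR1 #2, siADAR1 #2 against siADAR1 #1 and both siRNAs, with 3, 6, 5 and 0 of the 9, the same number as without it. Where leaving out a library left a group with 1 library, that library was assumed to vary like the others. The 2 libraries per group limit all comparisons, and CCND2, at 0 to 4 reads per library, was too low to be tested.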
